A study of Mus musculus with 6 samples.

Results

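The 29 genes described here encode proteins of the small (40S) subunit of the cytosolic ribosome, and they were taken as the rows of the deposited count table whose Ensembl identifiers carry the listed symbols in GENCODE M21. All 29 were found among the 53465 genes of the table. The libraries are ribosome profiling (Ribo-seq) libraries of ID8 cells, which come from the surface epithelium of the mouse ovary and form tumours. The series asked whether NAT10, an acetyltransferase that places N4-acetylcytidine on RNA, regulates translation in these cells. There were 3 KO libraries, from ID8 cells that received a guide RNA against Nat10 (sgNat10), and 3 WT libraries, from ID8 cells that received a control guide (sgNC). All cells were treated with 100 µg/mL cycloheximide for 2 min before lysis. The labels do not say whether the sgNat10 cells are a clone or a pool, nor whether the 3 libraries of a group stem from separate cultures. The p-values therefore reflect the spread among these libraries, which may be technical.

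The small subunit binds mRNA, scans to the start codon and pairs codons with tRNAs, while the large subunit joins amino acids. Each ribosome carries 1 copy of each small subunit protein, arranged with the 18S ribosomal RNA into a head, which holds tRNAs on the decoding side, and a body with the channels through which mRNA enters and leaves. Ribosomal protein mRNAs usually begin with a C and a run of pyrimidines, the 5′ terminal oligopyrimidine (TOP) motif, through which mTORC1 and the RNA-binding protein LARP1 control their translation. NAT10 is also the enzyme that acetylates the 18S RNA during assembly of the small subunit. Ribo-seq counts the mRNA pieces that ribosomes shield from nuclease, so a gene's count follows both its mRNA level and how densely ribosomes occupy it, and these cannot be told apart here because no matched RNA-seq was used.

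Library totals were 2541273, 2234305 and 3126208 counts in KO and 1687466, 2148715 and 1811225 in WT. Nat10 itself, the targeted gene, stood at 123, 56.9 and 138 CPM (counts per 1000000 after TMM scaling of the library totals) in KO and at 102, 64.0 and 169 CPM in WT, overlapping ranges with a log2 fold change, KO minus WT, of -0.074 (SE 0.48), so the label KO names libraries in which no loss of Nat10 fragments was measured. The distribution of gene counts peaked again well above single reads, at a modal count of 42, 46 and 60 in KO and 16, 21 and 39 in WT, and a count divided by its library's modal count is given below as molecule equivalents. Such values of single libraries are not scaled to library size. Over all genes they summed to 60506, 48572 and 52103 in KO and 105467, 102320 and 46442 in WT. Of 7 markers of ovarian surface epithelium 6 were abundant enough to test and 3 were called by edgeR's quasi-likelihood test. Of all 8200 genes tested, 33 were called, 0.402%. Krt18 and Krt19 were lower and Msln higher in KO. Summed levels of the list ran from 4310 to 5046 CPM in KO and 5639 to 5896 CPM in WT, scaled to plain library totals. Krt19 was the most abundant of these markers, with TMM-scaled means of 2223 CPM in KO and 4202 CPM in WT. Msln had means of 1636 CPM in KO and 789 CPM in WT. Leukocyte and endothelial markers were at or near 0, with summed levels of 0 to 0.960 and 0 to 1.60 CPM in KO and 0 to 13.5 and 0 CPM in WT. The summed fibroblast markers ran from 2.56 to 19.2 CPM in KO and 40.9 to 79.6 CPM in WT, and in WT nearly all of this was Col1a1. Col1a1 held 45 counts in KO and 365 in WT (edgeR adjusted p = 0.479). The KO counts were 1, 38 and 6, and in KO replicate 1 Pdgfra held more, with 14. The other fibroblast markers were too scarce to test and were not lower in KO, Pdgfra with 20 counts in KO and 8 in WT and Dpt with 1 in KO and 0 in WT. The part of these markers in the results was not tested.

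None of the 29 small subunit genes was called different between KO and WT. All 29 passed the filter on low counts, and 0 had an adjusted p under 0.05 by edgeR's quasi-likelihood test, where 33 of all 8200 genes tested, 0.402%, were called, 15 higher and 18 lower in KO (27 and 16 with plain library totals in place of TMM). At an unadjusted p under 0.05 there were 2 members (6.90%), Rps23 and Rps25, against 6.49% of all genes. The log2 fold change was positive in 17 members and negative in 12, with a median of 0.17, against a median of -0.016 over all genes. In 3 members (10.3%) the KO and WT libraries did not overlap, against 14.9% of all genes. These were Rps23 and Rps13, with every KO library above every WT library (6.94% of all genes lay this way), and Rps25, with every KO library below (7.93% of all genes). These shares rest on at most 3 genes and lay near those of all genes. The 0 calls among 29 members also lay near the 0.402% of all genes. DESeq2 called 2 members (6.90%), against 2.97% of the 7970 genes to which it gave an adjusted p, and limma-voom called 1 (3.45%), against 1.13% of all genes.

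**Figure D1:**
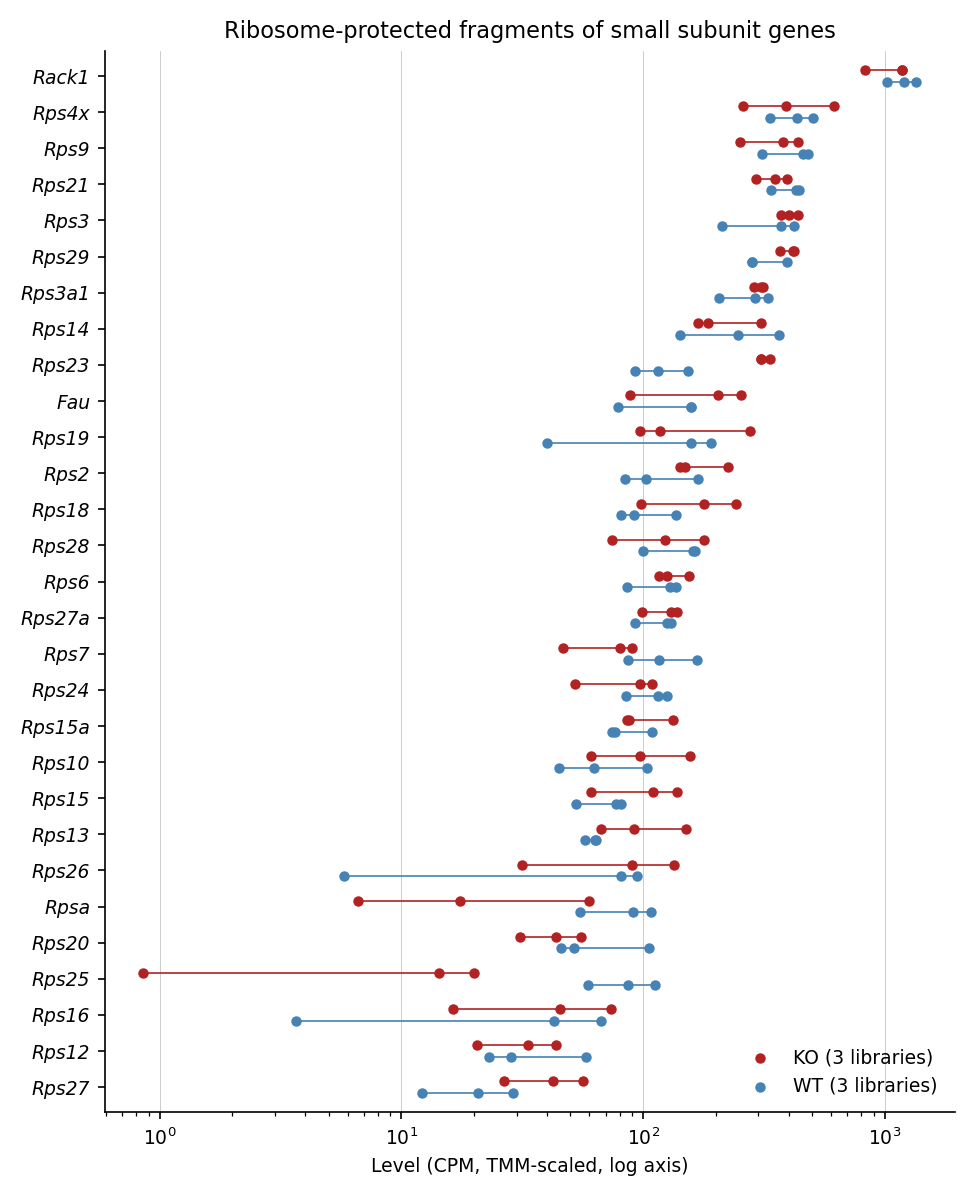
Level of each of the 29 small subunit genes in every library, in CPM on a log axis, with 3 KO libraries (red, upper) and 3 WT libraries (blue, lower) per gene joined by their range. Genes are ordered by mean level, from Rack1 at 1127 CPM to Rps27 at 31.2 CPM, and only Rps23, Rps13 and Rps25 have groups that do not overlap.

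The gene with the smallest p among the members was Rps23 (ENSMUSG00000049517, plus strand of chromosome 13, 90922958 to 90924950 in GRCm38), which encodes a protein of the body beside the decoding centre, where codon and anticodon pairing is checked. It stood at 336, 308 and 308 CPM in the KO libraries and at 92.4, 114.9 and 153 CPM in the WT libraries. The 3 KO values lay within 10% of one another and every one was above the highest WT value. In molecule equivalents, not scaled to library size, the KO libraries held only 20.5, 15.6 and 16.5 and the WT libraries 9.5, 10.95 and 6.77. The means were 317 ± 16.4 CPM in KO and 120 ± 30.4 CPM in WT (SD, n = 3 each), a log2 fold change of 1.40 (SE 0.30, 95% interval 0.77 to 2.04). Its adjusted p over all genes was 0.063 by edgeR's quasi-likelihood test, and 38 of the 8200 genes had a smaller p. Leaving out single libraries gave log2 fold changes of 1.25 to 1.61, with no call in any of the 6 fits. Of the 11 other alternative settings 5 called it, and DESeq2 was among them with an adjusted p of 4.04e-05.

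Rps25 was the other member called by DESeq2, in the opposite direction. It encodes a protein of the head known to be needed for initiation at several viral internal ribosome entry sites, and lies on the plus strand of chromosome 9 (ENSMUSG00000009927, 44407139 to 44410427 in GRCm38). Its levels were 19.9, 0.856 and 14.3 CPM in the KO libraries and 112, 86.9 and 59.0 CPM in the WT libraries. The counts behind these were 51, 2 and 46 in KO and 185, 174 and 102 in WT, so all KO libraries lay well below all WT libraries. As molecule equivalents, not scaled to library size, the KO libraries held 1.21, 0.0435 and 0.767 and the WT libraries 11.6, 8.29 and 2.62. The log2 fold change was -2.87 (SE 0.89, 95% interval -4.78 to -0.96; edgeR adjusted p = 0.386), and DESeq2 gave -2.85 with an adjusted p of 0.0142. Without single libraries it ran from -3.46 to -2.32. Rps25 overlaps Trappc4 and Ccdc84 on the opposite strand, and no source used here gives the strand setting of the counting.

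Rpsa, which encodes a protein at the back of the subunit and is also described as a laminin receptor, had the third smallest p. Its levels were 6.63, 17.6 and 59.9 CPM in KO and 108, 55.0 and 90.8 CPM in WT. The highest KO library, replicate 3, lay above the lowest WT library, so the groups overlapped. The log2 fold change was -1.59 (SE 0.75; edgeR adjusted p = 0.781), and without single libraries it ran from -2.81 (without KO replicate 3) to -1.11 (without KO replicate 1), with no call in any fit. Rps13, a body protein at the interface with the large subunit, was at 92.1, 67.2 and 149.8 CPM in KO and 63.8, 63.0 and 57.2 CPM in WT. The lowest KO value was only a little above the highest WT value, and the log2 fold change was 0.75 (SE 0.48; edgeR adjusted p = 1.0).

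**Figure D2:**
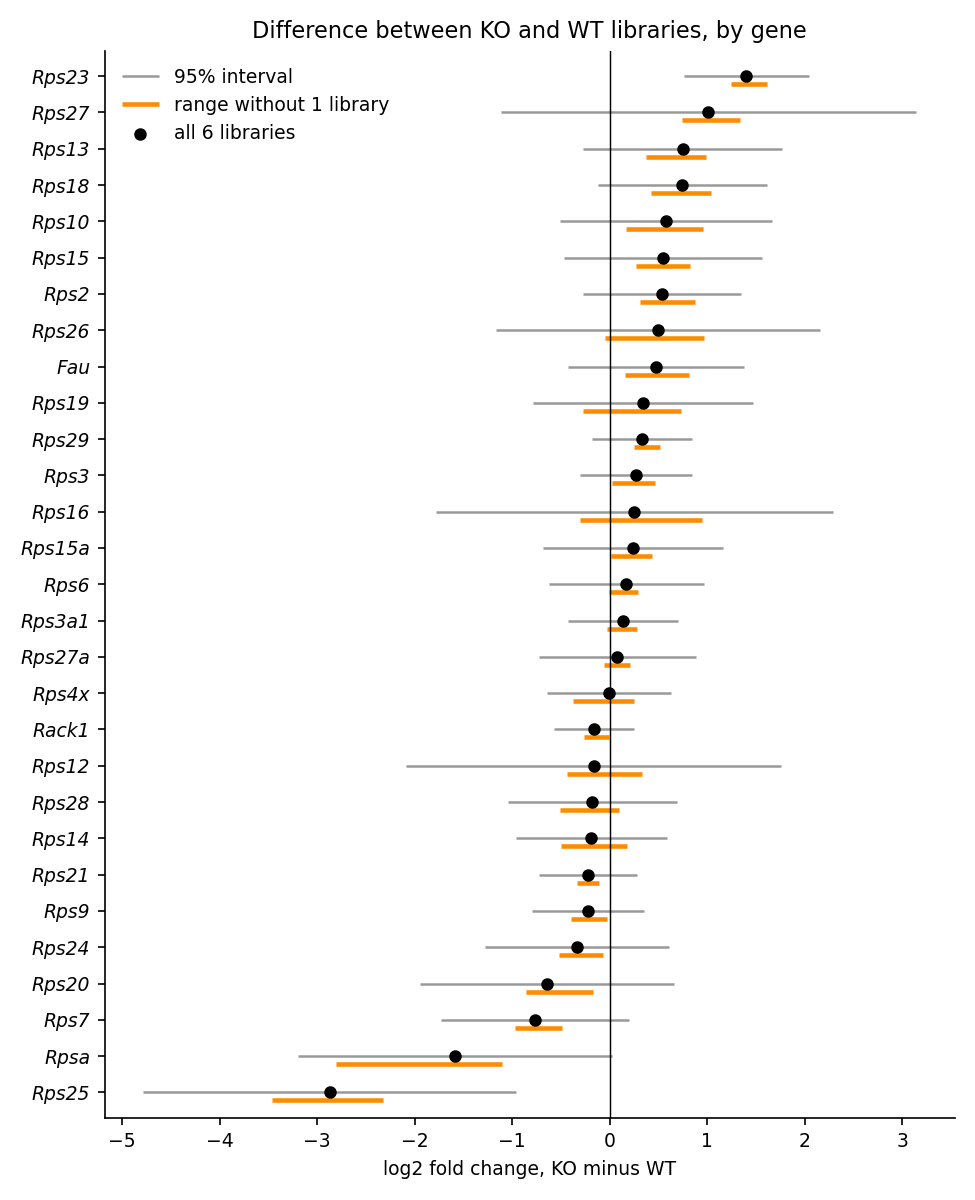
Log2 fold change, KO minus WT, of each small subunit gene (black points, all 6 libraries), with its 95% interval (grey) and the range over the 6 fits that each left out 1 library (orange). The intervals of Rps23 and Rps25 exclude 0, while that of Rpsa runs from -3.20 to 0.022.

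Head proteins were spread on both sides of 0. The 13 head members had a median log2 fold change of 0.25, with 8 positive and 5 negative, and the 16 body members had a median of 0.15, with 9 positive and 7 negative. Rack1, a scaffold protein on the back of the head that binds signalling kinases, was the most abundant member. It stood at 1175, 830 and 1182 CPM in KO and at 1020, 1206 and 1347 CPM in WT. The ranges overlapped, and the log2 fold change of -0.16 (SE 0.19, 95% interval -0.58 to 0.25) had the smallest standard error of the 29. Rps3, the head protein at the mRNA entry channel, stood at 400.3, 436 and 371 CPM in KO and 420.1, 212 and 371 CPM in WT. The single low library was WT replicate 2, and the log2 fold change was 0.27 (SE 0.27).

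Rps15, Rps16, Rps18 and Rps19 share the head with Rps3, and Rps15 and Rps16 extend tails to the tRNA sites. Rps18 was at 179, 97.6 and 243 CPM in KO and 80.9, 136.9 and 91.9 CPM in WT. KO replicates 1 and 3 lay above all WT libraries and KO replicate 2 did not, with a log2 fold change of 0.75 (SE 0.41; edgeR adjusted p = 0.919). Rps15 had 0.55 (SE 0.48), from 60.9, 109.6 and 138 CPM in KO and 80.9, 53.0 and 76.9 CPM in WT. Rps19, mutated in the human anaemia named after Diamond and Blackfan, had 118, 96.8 and 277 CPM in KO and 40.1, 191 and 158 CPM in WT. Single libraries decided its sign, since a log2 fold change of 0.34 (SE 0.53) became -0.28 without KO replicate 3. Rps16 was scarce and scattered, at 16.4, 45.4 and 73.5 CPM in KO and 3.65, 43.0 and 67.1 CPM in WT (log2 fold change 0.25, SE 0.95).

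Rps10, Rps20, Rps2 and Rps3 are the proteins that ubiquitin ligases mark when ribosomes stall and collide. Rps10 had 97.1, 60.8 and 156 CPM in KO and 45.0, 62.5 and 103 CPM in WT, a log2 fold change of 0.57 (SE 0.51). Rps20 lay the other way, with 43.7, 30.8 and 55.5 CPM in KO and 51.7, 105 and 45.7 CPM in WT (log2 fold change -0.64, SE 0.61). Rps2, a body protein that lines the entry channel, had 142, 224 and 149.5 CPM in KO and 169, 102 and 84.4 CPM in WT (0.53, SE 0.38). Each of these overlapped between the groups. Of 13 further genes in the handling of stalled small subunits, 12 were tested and 0 were called, with a median log2 fold change of -0.28, which ran from -0.55 without KO replicate 1 to 0.029 without KO replicate 3. The lowest p among them were those of G3bp1, a stress granule protein, at -0.59 (SE 0.30), and Edf1, a sensor of collided ribosomes, at -0.91 (SE 0.55), and 0 had an unadjusted p under 0.05 or a call by DESeq2 or limma-voom.

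Rps29, a small zinc-binding protein of the head, stood at 367, 422 and 417 CPM in KO and 281, 282 and 395 CPM in WT (log2 fold change 0.33, SE 0.24). Rps28, beside the mRNA exit channel, had 178, 74.5 and 123 CPM in KO and 161, 163 and 100.0 CPM in WT (-0.18, SE 0.40). Rps12, which in Drosophila takes part in the elimination of cells short of ribosomal proteins, was among the scarcest, at 43.7, 33.4 and 20.5 CPM in KO and 23.1, 28.5 and 57.8 CPM in WT (-0.17, SE 0.90). The KO and WT libraries of each of these genes overlapped.

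Both members that are made as fusions with a ubiquitin-like protein overlapped between the groups. Rps27a, whose precursor carries ubiquitin, had 129.9, 139 and 99.0 CPM in KO and 125, 129.9 and 92.5 CPM in WT, a log2 fold change of 0.080 (SE 0.38). Fau, whose precursor carries the ubiquitin-like FUBI ahead of the ribosomal protein eS30, had 205, 88.6 and 254 CPM in KO and 157, 158 and 78.6 CPM in WT (0.48, SE 0.42). In each group 1 library of Fau lay far below the other two, KO replicate 2 and WT replicate 3.

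Among the body proteins, Rps6, the substrate of S6 kinase downstream of mTORC1, stood at 116, 126 and 155 CPM in KO and at 129.5, 137 and 86.1 CPM in WT. The ranges overlapped, with a log2 fold change of 0.17 (SE 0.37). Rps26, which contacts mRNA upstream of the start codon, had 31.6, 134 and 90.3 CPM in KO and 80.9, 94.4 and 5.78 CPM in WT. The WT value of 5.78 rests on 10 counts, and without that library the log2 fold change of 0.49 (SE 0.78) became -0.044. Rps7, mutated in some patients with the same anaemia as Rps19, had 89.7, 80.5 and 46.5 CPM in KO and 116, 166 and 86.7 CPM in WT (-0.77, SE 0.45; edgeR adjusted p = 0.980), and the groups overlapped narrowly. Rps14, whose loss in human 5q- syndrome impairs red cell formation, had 307, 168 and 186 CPM in KO and 142, 247 and 366 CPM in WT (-0.19, SE 0.36).

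The remaining body proteins were Rps3a1, Rps4x, Rps9, Rps15a, Rps21, Rps24 and Rps27. Rps4x, encoded on the X chromosome, had 618, 259 and 389 CPM in KO and 431, 335 and 506 CPM in WT, with a log2 fold change of -0.0084 (SE 0.30). Rps3a1 averaged 303 ± 13.7 CPM in KO and 275 ± 62.0 CPM in WT (SD, n = 3 each), and Rps9 356 ± 94.3 CPM in KO and 417 ± 94.1 CPM in WT. The log2 fold changes of Rps3a1, Rps9, Rps15a, Rps21 and Rps24 lay between -0.33 (Rps24) and 0.24 (Rps15a), inside -0.5 to 0.5 like those of 18 members in all. Rps27 was the scarcest member, with 42.5, 26.6 and 56.2 CPM in KO and 12.2, 28.98 and 20.8 CPM in WT. Its log2 fold change of 1.01 was as large as its standard error of 0.996, the largest of the 29.

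Precision followed abundance. The 9 members with at least 200 CPM had standard errors of 0.19 to 0.36, the 7 members between 100 and 200 CPM 0.37 to 0.53, and the 13 members below 100 CPM 0.43 to 0.996. In 10 members the 95% interval lay within -1 to 1, so that a change of more than 2-fold lay outside it, and for most of the others a change of that size could not be told from the spread among these libraries. Within the KO group the highest and lowest library differed by more than 2-fold in 15 members, and within WT in 10. Over the main fit and 17 alternative fits, 11 members kept a positive log2 fold change, 8 kept a negative one, and 10 changed sign at least once.

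**Figure D3:**
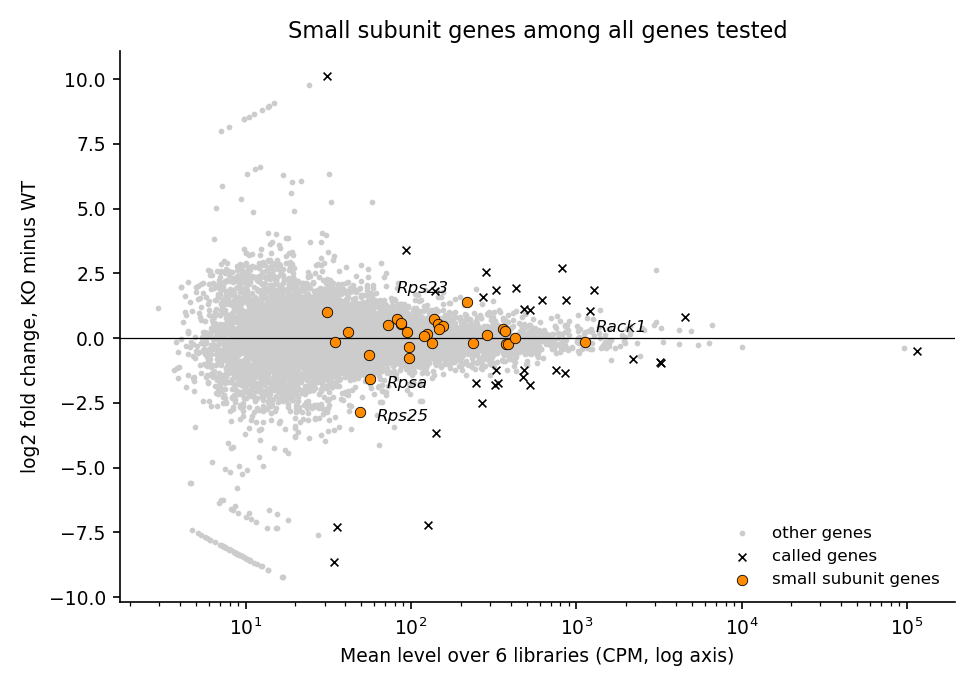
Log2 fold change, KO minus WT, against mean level in CPM (log axis) for the 8200 genes tested (grey), the 33 called genes (crosses) and the 29 small subunit genes (orange). The small subunit genes span -2.87 to 1.40 and lie within the cloud of the other genes, with none called.

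Summed over the 29 genes, the small subunit took 0.609%, 0.518% and 0.648% of all counts in the KO libraries and 0.511%, 0.509% and 0.555% in the WT libraries. KO replicate 2 lay below the highest WT library, so the groups overlapped, and the means were 0.592 ± 0.067% in KO and 0.525 ± 0.026% in WT (SD, n = 3 each). Rack1 alone made up 16.7% to 19.5% of the members' counts in KO and 19.5% to 23.2% in WT. Without Rack1 the share was 0.490%, 0.432% and 0.526% in KO and 0.412%, 0.397% and 0.426% in WT. These 2 groups did not overlap, but the lowest KO value and the highest WT value were close, the sum contains Rps23, and it was formed after the values were seen. The 47 large subunit genes took 1.09 ± 0.060% in KO and 1.06 ± 0.052% in WT, and the ratio of small to large subunit counts was 0.541 ± 0.036 in KO and 0.496 ± 0.0082 in WT. No test was made on these sums.

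**Figure D4:**
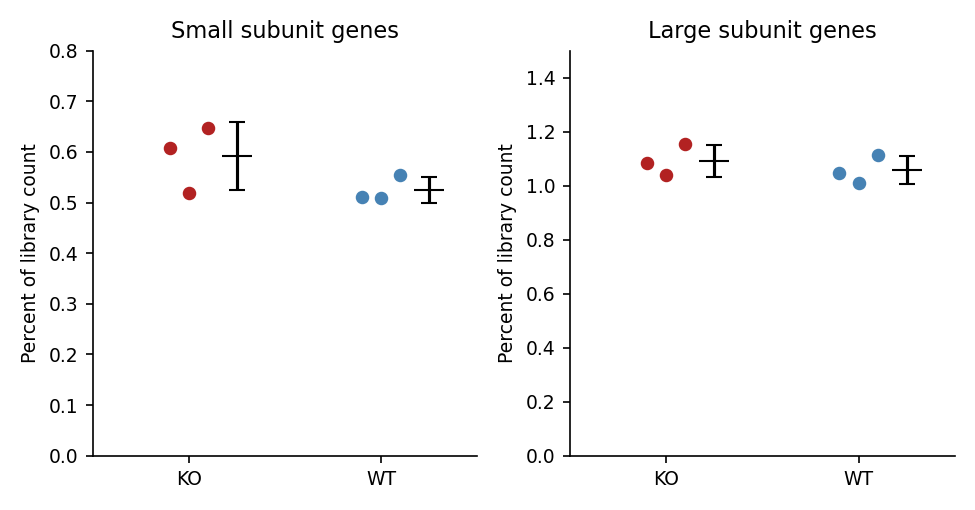
Share of each library's count held by the 29 small subunit genes (left panel) and by 47 large subunit genes (right panel), in percent, with KO (red) left of WT (blue). Points are libraries and bars are the mean ± SD of 3, with the small subunit at 0.592% in KO and 0.525% in WT.

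Each protein is needed once per subunit, so levels were compared between genes per kilobase of coding sequence (CPM per kb). They spanned 33.7-fold, from 63.7 CPM per kb for Rpsa to 2147 CPM per kb for Rps29, with a median of 244. All 29 members lay above 25.7 CPM per kb, the median of the 8087 tested genes with a coding sequence. In order, Rps29 averaged 2393 ± 181 CPM per kb in KO and 1901 ± 392 in WT, Rps21 1385 ± 204 in KO and 1619 ± 228 in WT, and Rack1 1117 ± 212 in KO and 1252 ± 172 in WT (SD, n = 3 each). Averages over all 6 libraries then fell to 664 for Rps9 and 644 for Rps28, neighbours whose SDs of 156 and 197 exceed their distance. At the low end Rps16, Rps12 and Rpsa averaged 94.7, 87.1 and 63.7 CPM per kb, again with SDs of 62.6, 35.6 and 44.8 that exceed the gaps. Across the 29 genes the log2 level per kb in KO correlated with that in WT at Pearson r = 0.825, as a description over genes whose libraries share preparation, length and sequence.

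Ribosomal protein genes have many processed pseudogenes, copies without introns that arose from reverse-transcribed mRNA, so that a footprint can match several places. Every run of 29 bases in each coding sequence, a length within the 25 to 34 nt that the submitters kept, was looked up in the GRCm38 chromosomes outside the gene. A median of 4.26% of these windows were without an exact copy in the small subunit genes, against a median of 100% over the 8087 tested genes. In 11 members not a single coding window was without a copy, and these were Rpsa, Rps6, Rps12, Rps13, Rps16, Rps23, Rps27, Rps27a, Rps28, Rps29 and Fau. At the other end stood Rack1 with 94.6% of windows without a copy, Rps3 with 78.9%, Rps9 with 42.8%, Rps14 with 31.1% and Rps15 with 25.6%. The 43 tested large subunit genes were alike, with a median of 0.484% and 20 without any such window.

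The windows below cross the joint of 2 coding exons, with the bases of the second exon in capitals, and show how a spliced sequence recurs in the genome. They come from Rpsa, the member with the third smallest p, from Rack1, the most abundant member, and from Rps29, the highest per kilobase, and each has the most copies outside the gene among the junction windows considered. The Rps25 sequence is instead one of its 6 windows without a copy and starts at the second codon.
Rpsa, chr9:120130353-120130785, plus strand: gcaacaacaagGGAGCTCACTCAGTGGGT
Rack1, chr11:48805640-48805992, plus strand: gtctgctgatggccagACTCTGTTTGCTG
Rps29, chr12:69158749-69159013, minus strand: cagggttcccgctcttgCCGCGTCTGCTC
Rps25, chr9:44407988-44408016, plus strand: cctcccaaagacgacaagaagaagaaaga
The Rpsa window occurs at 14 other places in the genome, the Rps29 window at 3 and the Rack1 window at 1. Coordinates are GRCm38, and those of the Rpsa, Rack1 and Rps29 windows include the intron, which the printed sequence leaves out.

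Windows of the 29 genes recurred at 553 loci in all, counted per member, of which 485 lay in annotated pseudogenes. Counting all loci, Rps2 had 117, Rps6 40 and Rpsa 39, of which 103, 33 and 35 lay in annotated pseudogenes. Rack1 and Rps9 had 2 each and Fau 1. The count table nevertheless placed few counts on the pseudogenes. Their 452 rows held 120, 81 and 83 counts in the KO libraries and 85, 117 and 68 in the WT libraries, between 0.410% and 1.07% of the members' own counts, and 366 of them held no count at all. The largest were Rps10-ps1 with 64 counts over the 6 libraries, Gm5905 (sharing windows with Rps9) and Gm7363 (Rps24) with 58 each, Gm14034 (Rps9) with 42, all in KO replicate 1, and Gm9843 (Fau) with 39. The 15 pseudogenes that share windows with Rps23 held 4 counts in KO and 4 in WT, and the 13 of Rps25 held 5 in KO and 7 in WT. No source used here says how reads with several matches were assigned, so values of members without a coding window of their own, Rps23 included, are uncertain in what they count. For Rps23 the annotated transcript has 423 windows without a copy, all outside the coding sequence.

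**Figure D5:**
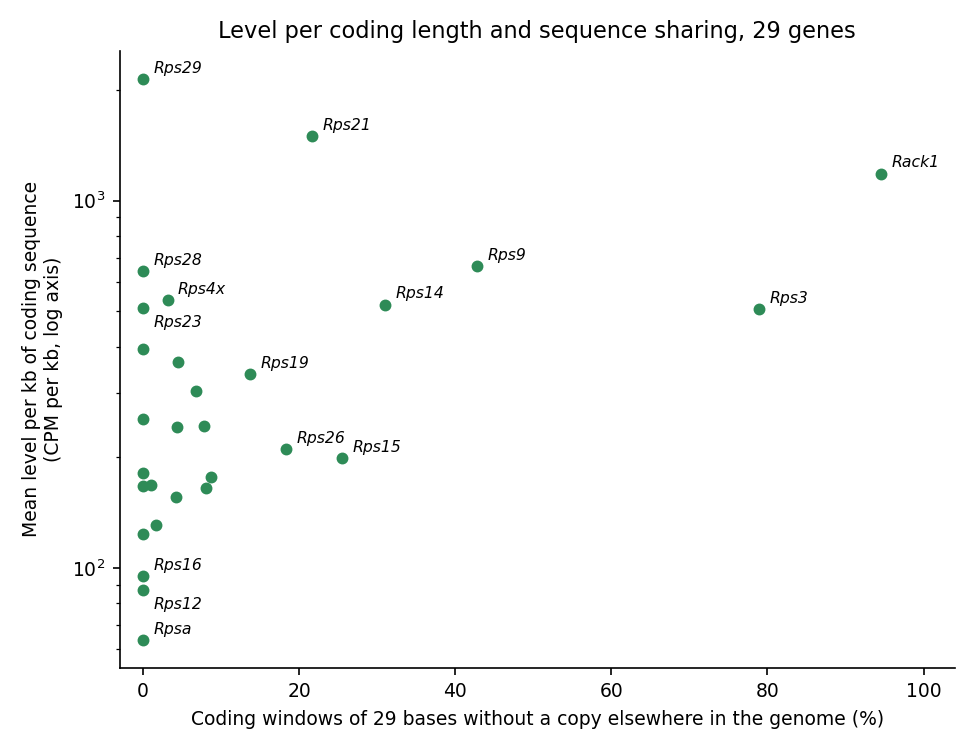
Mean level per kilobase of coding sequence over 6 libraries (CPM per kb, log axis) against the percent of 29-base coding windows without an exact copy elsewhere in the genome, for the 29 small subunit genes. Genes at 0% span the whole range of levels, from Rpsa at 63.7 to Rps29 at 2147 CPM per kb, and Rack1 and Rps3 stand alone at the right.

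The log2 level per kilobase and the share of windows without a copy correlated at Pearson r = 0.443 across the 29 genes, a description of genes that share libraries and depth. The 11 members without such a window ran from 63.7 to 2147 CPM per kb, the 13 with up to 25% from 130.4 to 1502, and the 5 above 25% from 199 to 1185. Their median log2 fold changes, KO minus WT, were 0.25, 0.14 and -0.16, with ranges of -1.59 to 1.40, -2.87 to 0.75 and -0.23 to 0.55. The last of these classes holds Rack1, Rps3, Rps9, Rps14 and Rps15.

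The TOP motif was looked for at the transcription starts that RefSeq lists for GRCm38.p6, as a C at the listed start followed by at least 4 bases that are C or T, read on the gene's strand. Starts were listed for 25 of the 29 members. Such a start was found in 8 of them, Rps6, Rps10, Rps15a, Rps18, Rps21, Rps27, Fau and Rack1, or 27.6% of their 29 listed starts, against 2.51% of all 32851 listed starts. The sequences below give 15 bases before and 15 from the start, with the pyrimidine run in capitals, for the S6 kinase substrate Rps6 and for the 3 genes with the longest runs.
Rps6, chr4:86857353-86857382, minus strand: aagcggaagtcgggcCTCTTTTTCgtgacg
Rps10, chr17:27635230-27635259, minus strand: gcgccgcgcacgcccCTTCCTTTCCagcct
Fau, chr19:6057932-6057961, plus strand: tgcgcgcccccacttCTTCCTCTTTCTTga
Rack1, chr11:48800345-48800374, plus strand: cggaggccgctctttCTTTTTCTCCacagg
A listed start can lie a few bases from the one used in ID8 cells, so the other genes only lack these letters at these positions. The 8 genes with the run had a median log2 fold change of 0.36, from -0.22 to 1.01, and the 17 without it 0.14, from -2.87 to 1.40.

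In further genes of the same pathways the main edgeR fit made no calls either, while DESeq2 and limma-voom called a few named below. The edgeR fit without a count filter called Rpl13 (edgeR adjusted p = 0.00259), Ddit4 (0.0271) and Ptcd3 (0.0298). With molecule equivalents edgeR called the same genes (edgeR adjusted p = 0.0244, 0.0158 and 0.0189). Among small subunit genes outside the 29, Rps27l, a close relative of Rps27, had 64.0, 48.4 and 74.1 CPM in KO and 30.4, 23.98 and 1.73 CPM in WT. These groups did not overlap, and the log2 fold change was 1.73 (SE 0.94; edgeR adjusted p = 0.914). DESeq2 and limma-voom did not call it either. Rps27rt held 22 counts in KO and 1 in WT, and none of its coding windows is without a copy. Rps4l, annotated as a transcribed processed pseudogene, held no counts. Both were too scarce to test.

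Of 43 tested large subunit genes 0 were called in the main fit, 20 were positive and 23 negative. The median log2 fold change was -0.062, from -0.17 without KO replicate 1 to 0.029 without WT replicate 3. Rpl13 had 152, 272 and 247 CPM in KO and 60.8, 108.9 and 19.7 CPM in WT (1.82, SE 0.51; edgeR adjusted p = 0.254), and Rpl36a 284, 288 and 326 CPM in KO and 437, 376 and 786 CPM in WT (-0.83, SE 0.28; edgeR adjusted p = 0.443). Neither pair of groups overlapped. As with Rps23, neither gene has a coding window without a copy, so what these values count is uncertain. WT replicate 3 of Rpl13 rests on 34 counts. At an unadjusted p under 0.05 there were 2 large subunit genes, DESeq2 called 1 and limma-voom 1, both Rpl13. Of 29 tested assembly factors of the small subunit 0 were called, with a median of -0.11, which was -0.28 without KO replicate 3 and -0.063 without KO replicate 1. Mphosph10, of the early processome, had -1.29 (SE 0.48) and Emg1, an 18S methyltransferase, -1.16 (SE 0.50). These were the 2 with an unadjusted p under 0.05, and DESeq2 and limma-voom called 0.

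The 18 other mRNAs known to carry TOP motifs had 0 calls by edgeR and a median of -0.15, which was -0.037 with plain library totals. Eef2, the translocation factor, had 3066, 2463 and 3038 CPM in KO and 2131, 2313 and 2012 CPM in WT, a log2 fold change of 0.41 (SE 0.15; edgeR adjusted p = 0.512) with groups that did not overlap. Eef1b2, an exchange factor of elongation, had 0.64 (SE 0.26). In this list 4 genes (22.2%) had an unadjusted p under 0.05, against 6.49% of all genes, DESeq2 called 0 and limma-voom 1, Eef2. The 13 regulators of mTORC1 and TOP mRNAs also had 0 calls in the main edgeR fit. Their median of -0.10 ran from -0.65 without KO replicate 3 to 0.036 without WT replicate 3, and it was -0.69 with limma-voom and -0.71 with a replicate block. Ddit4, an inhibitor of mTORC1, had 18.7, 20.1 and 22.6 CPM in KO and 103, 138 and 100.0 CPM in WT (-2.47, SE 0.53; edgeR adjusted p = 0.065), every KO library far below every WT library. In unscaled molecule equivalents its KO libraries held only 1.14, 1.02 and 1.22 and its WT libraries 10.6, 13.1 and 4.44. Larp1, which binds the TOP motif, had 65.5, 78.8 and 93.7 CPM in KO and 125, 132 and 246 CPM in WT (-1.08, SE 0.40; edgeR adjusted p = 0.545). These 2 (15.4%) had an unadjusted p under 0.05, and DESeq2 called 1, Ddit4, and limma-voom 0.

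The small subunit of the mitochondrial ribosome, whose proteins are encoded in the nucleus, served as a comparison. Of 30 tested genes 0 were called in the main edgeR fit and the median log2 fold change was -0.43, with 12 positive and 18 negative. That median rests on single libraries and on the method, since it was 0.017 without KO replicate 3, -0.023 without WT replicate 1, -0.76 with a replicate block and -1.48 with limma-voom. Ptcd3, like Mrps27 a pentatricopeptide-repeat protein, had 90.1, 42.4 and 23.0 CPM in KO and 185, 208 and 128 CPM in WT (-1.75, SE 0.50; edgeR adjusted p = 0.286), and Mrps27 -1.87 (SE 0.91). At an unadjusted p under 0.05 there was 1 gene, Ptcd3, which DESeq2 and limma-voom called. The median standard error of this list was 1.38, against 0.42 for the cytosolic small subunit genes.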

How the data were processed

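Ribosome-protected fragments of 6 ID8 libraries were analysed, 3 KO and 3 WT, grouped by their titles. Per the labels' protocols, Cutadapt trimmed the reads, those of 25 to 34 nt were kept, Bowtie removed rRNA and tRNA, and HISAT2 and Bowtie aligned the rest to GRCm38 and its transcriptome. Besides these, featureCounts and DESeq2 are named per the submitters' processing notes, without versions. For the strand setting, duplicates and reads with several matches the sources used here give nothing. The authors deposited raw counts per Ensembl gene, not normalized, with totals of 1687466 to 3126208; 53360 of 53465 identifiers matched GENCODE M21. Intervals are 95% confidence intervals of the log2 fold change and rest on the spread between these libraries.

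Genes were tested with edgeR 4.0.16 (quasi-likelihood, robust, TMM, filterByExpr, 8200 genes; R 4.3.3), with Benjamini-Hochberg adjustment over all of them and calls at 0.05. CPM use TMM-scaled totals. The alternatives were DESeq2 1.42.0, limma-voom (limma 3.58.1), other scaling, filters, pseudogene counts added by parent symbol, molecule equivalents (the modal count between 8 and 150, kernel bandwidth 3), a replicate block and each library left out. The fit was tested on simulated data. Copies of 29-base windows were counted on both strands, and copies within 2000 bases were joined into 1 locus. Coding sequences were those of 1 transcript per gene, preferring a complete coding sequence, then an APPRIS principal transcript, then the longest. Promoter sequences are from RefSeq.

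The members and all gene lists were chosen with earlier results of these data known. Named genes are all members, other small subunit genes (some are not reported here), Nat10, the 2 lowest-p tested genes of each other list and the 5 pseudogenes with most counts. Krt18, Krt19, Msln and the fibroblast markers are named from the marker lists, and the unadjusted and non-overlap counts are described after seeing the values.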

Additional observations from a re-analysis of the deposited data

How the results depend on the processing

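Of 17 alternative fits, 12 gave 0 small subunit calls, as the main fit did. DESeq2 called 2 members (Rps23 and Rps25) of 237 genes called in all, and molecule equivalents 2 (the same pair) of 109. limma-voom called 1 (Rps23) of 93 genes, the fit without a count filter 1 (Rps23) of 91, and plain library totals 1 (Rps23) of 43. All genes called numbered 33 in the main fit and 6 to 29 without single libraries (6 without WT replicate 2 or 3, 15 without KO replicate 1). Same-numbered KO and WT libraries deviated together at correlations of -0.017, -0.003 and -0.007, and other pairs at -0.02 to 0.028. No pairing by number was visible, though the scatter between replicates could hide a weak one. A replicate block gave 38 calls, 0 of them members, with a member median of 0.19. The member median of 0.17 ran from 0.0034 (without WT replicate 1) to 0.21 without single libraries. Plain totals shifted the median of all genes by 0.11, and gave a member median of 0.28. With mitochondrially encoded and the 10 most abundant genes out of the totals, the members' share became 0.774% in KO and 0.730% in WT. Without single libraries it was 0.564% to 0.628% in KO and 0.510% to 0.533% in WT. Signs turned in genes that were never called there. Rps4x became 0.011 with DESeq2, 0.011 with its size factors, 0.0054 at 50 counts in 3 libraries, 0.090 with plain totals, 0.0026 without the dominant genes, 0.0008 without a filter and 0.020 as molecule equivalents. As molecule equivalents Rps6 became -0.029, Rps12 0.063, Rps27a -0.051 and Nat10 0.12. Nat10 became 0.027 with plain totals and 0.020 with limma-voom. Without single libraries the ranges were -0.38 to 0.25 for Rps4x, -0.061 to 0.21 for Rps27a, -0.50 to 0.095 for Rps28, -0.43 to 0.33 for Rps12, -0.30 to 0.95 for Rps16, -0.28 to 0.73 for Rps19, -0.031 to 0.28 for Rps3a1, -0.011 to 0.29 for Rps6, -0.50 to 0.18 for Rps14 and -0.044 to 0.97 for Rps26. The range was -0.35 to 0.35 for Nat10. The cause of these turns was not tested. Members below 100 CPM had standard errors up to 0.996, and how far depth sets them was not tested. Members that share their coding windows with pseudogenes carry counts whose origin the files do not settle.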
